A study of Homo sapiens with 4 samples.

Results

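Collagen genes, the enzymes that modify and cross-link collagen, and their main partners in the extracellular matrix were examined in BM1 and LM2 breast cancer cells with and without depletion of the RNA-binding protein hnRNPM. The members were all rows of the gene table whose symbol is that of a collagen chain, together with a fixed list of modifying enzymes, processing factors and matrix proteins. This gave 43 of the 20329 genes used, 26 collagen chains and 17 other genes. Of these, 32 had a mean of at least 1 FPKM (fragments counted in a gene, scaled by its length and by the depth of the library) over the libraries and entered the tests, 17 collagen chains and 15 others, and 11 lay below that level. The symbols BGN, DCN, POSTN, FBN2 and COL1A2, among 22 collagen and matrix genes looked for, have no row in the table and were not analysed here. There were 4 libraries, 1 per group. Both lines derive from MDA-MB-231, a triple-negative human breast cancer line, and the labels call BM1 (1833) the bone and LM2 (4175) the lung metastasis derivative. Each gave 1 library of control cells, stably carrying a non-specific shRNA, and 1 of knockdown cells, stably carrying an shRNA against hnRNPM, both brought in by lentivirus. The sources used here do not say whether the derivatives are clonal or which shRNA sequences were used. With 1 library per group, a difference between 2 libraries has no replicate check. Where levels are given as a pair, the control comes first and the knockdown of the same line after it.

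Collagens are matrix proteins of 3 chains wound into a helix. Inside the cell, prolyl 4-hydroxylases stabilise the helix, lysyl hydroxylases prepare lysines for cross-links and sugars, and the chaperone HSP47 (SERPINH1) keeps the chains folded. After secretion, the propeptides are cut off and lysyl oxidases start the cross-links that stiffen the matrix. Fibrillar collagens (types I, III, V, XI) form the fibres of connective tissue and bone, type IV forms the sheet of basement membranes, and type VI forms beaded filaments next to cells. Fibroblasts and osteoblasts make most fibrillar collagen in tissues, and carcinoma cells with mesenchymal traits can make some themselves.

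Depth was read from the steps between low values and came to about 22800000 to 41500000 fragments per library. HNRNPM itself measured 171 and 28.4 FPKM for the BM1 pair and 132 and 20.3 FPKM for the LM2 pair. Mitochondrial genes took a larger share of the FPKM sum in the knockdown libraries (12.8% in BM1 and 11.8% in LM2) than in the controls (9.31% and 8.80%). All 5 markers of a mesenchymal-like line (VIM, CD44, AXL, CAV1 and ZEB1) had a row, with sums of 1835 to 3035 FPKM. Of the receptors that define triple-negative cells by their absence, ESR1 and PGR have no row and ERBB2 lay between 13.5 and 21.9 FPKM. For other cell types, 4 of 6 fibroblast markers had a row, and their summed level was 1.66 and 0.807 FPKM in the BM1 and LM2 controls and 3.98 and 4.57 FPKM in the knockdowns. The fibroblast marker THY1 was at most 0.0843 FPKM, and DCN and FAP have no row. SP7, IBSP and ALPL of the osteoblast list, PECAM1 and CDH5 of the endothelial list and PTPRC and ITGAM of the haematopoietic list have no row. The remaining members were RUNX2 and BGLAP, VWF and KDR, and CD68 and CD14. They summed to 3.87 to 7.75, 0.480 to 1.55 and 5.93 to 25.1 FPKM, list by list. CD68 was at 23.5 and 4.46 FPKM for the BM1 pair and 9.50 and 2.04 FPKM for the LM2 pair. CD14 reached 7.09 FPKM in the LM2 knockdown, and RUNX2 lay between 3.63 and 7.18 FPKM.

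The summed level of collagen transcripts was compared first, in FPKM, which is scaled by gene length. The 26 collagen genes summed to 303 and 267 FPKM for the BM1 pair and to 562 and 602 FPKM for the LM2 pair. Both LM2 sums were above both BM1 sums, and each pair differed by less than the lines did. These sums rest on 1 library each and were not tested. Type VI chains held 27.5% of the sum in the BM1 control and 43.7% in the LM2 control, and 14.7% and 28.2% in the corresponding knockdowns. Fibrillar chains held 3.36% and 8.27% for the BM1 pair and 9.77% and 22.1% for the LM2 pair, with the larger share in the knockdown library. Type IV chains held 7.07% and 9.95% for the BM1 pair and 9.77% and 15.4% for the LM2 pair. The single most abundant collagen transcript was COL8A1, a short network-forming chain of vessel walls, in both BM1 libraries (28.4% and 36.5% of the sum) and COL6A1 in both LM2 libraries (30.5% and 21.7%).

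**Figure D1:**
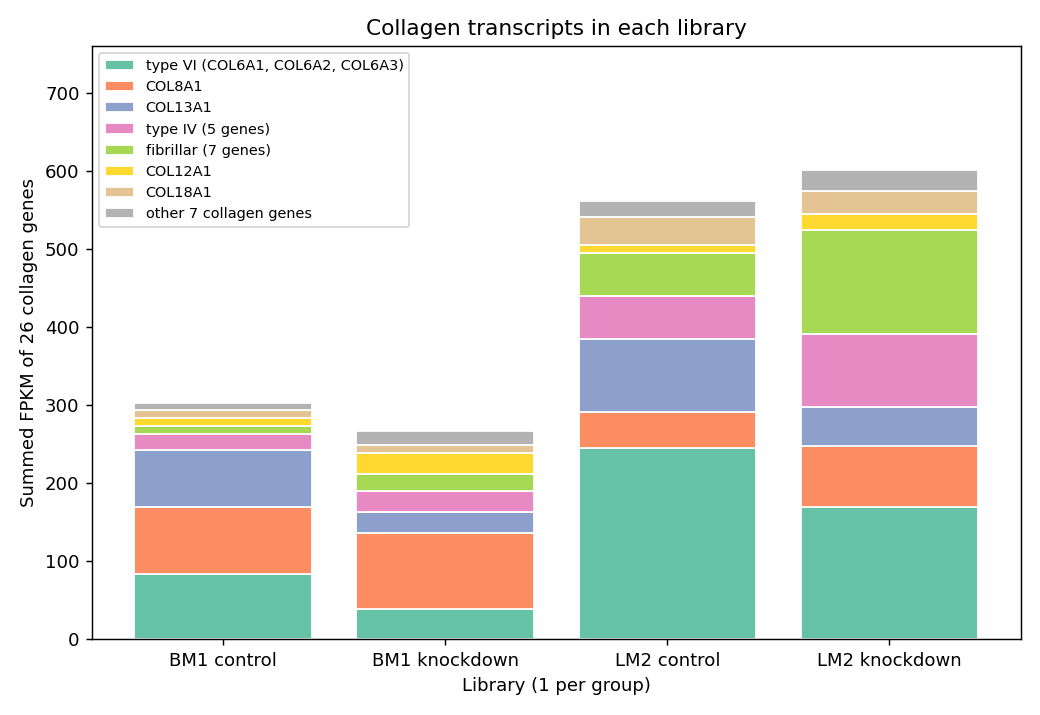
Summed FPKM of the 26 collagen genes (vertical axis, linear from 0) in each of the 4 libraries (horizontal axis, 1 library per bar), divided into 8 groups of genes. The LM2 bars reach 562 and 602 FPKM against 303 and 267 in BM1, and the type VI part is smaller and the fibrillar part larger in each knockdown library than in its control.

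**Figure D2:**
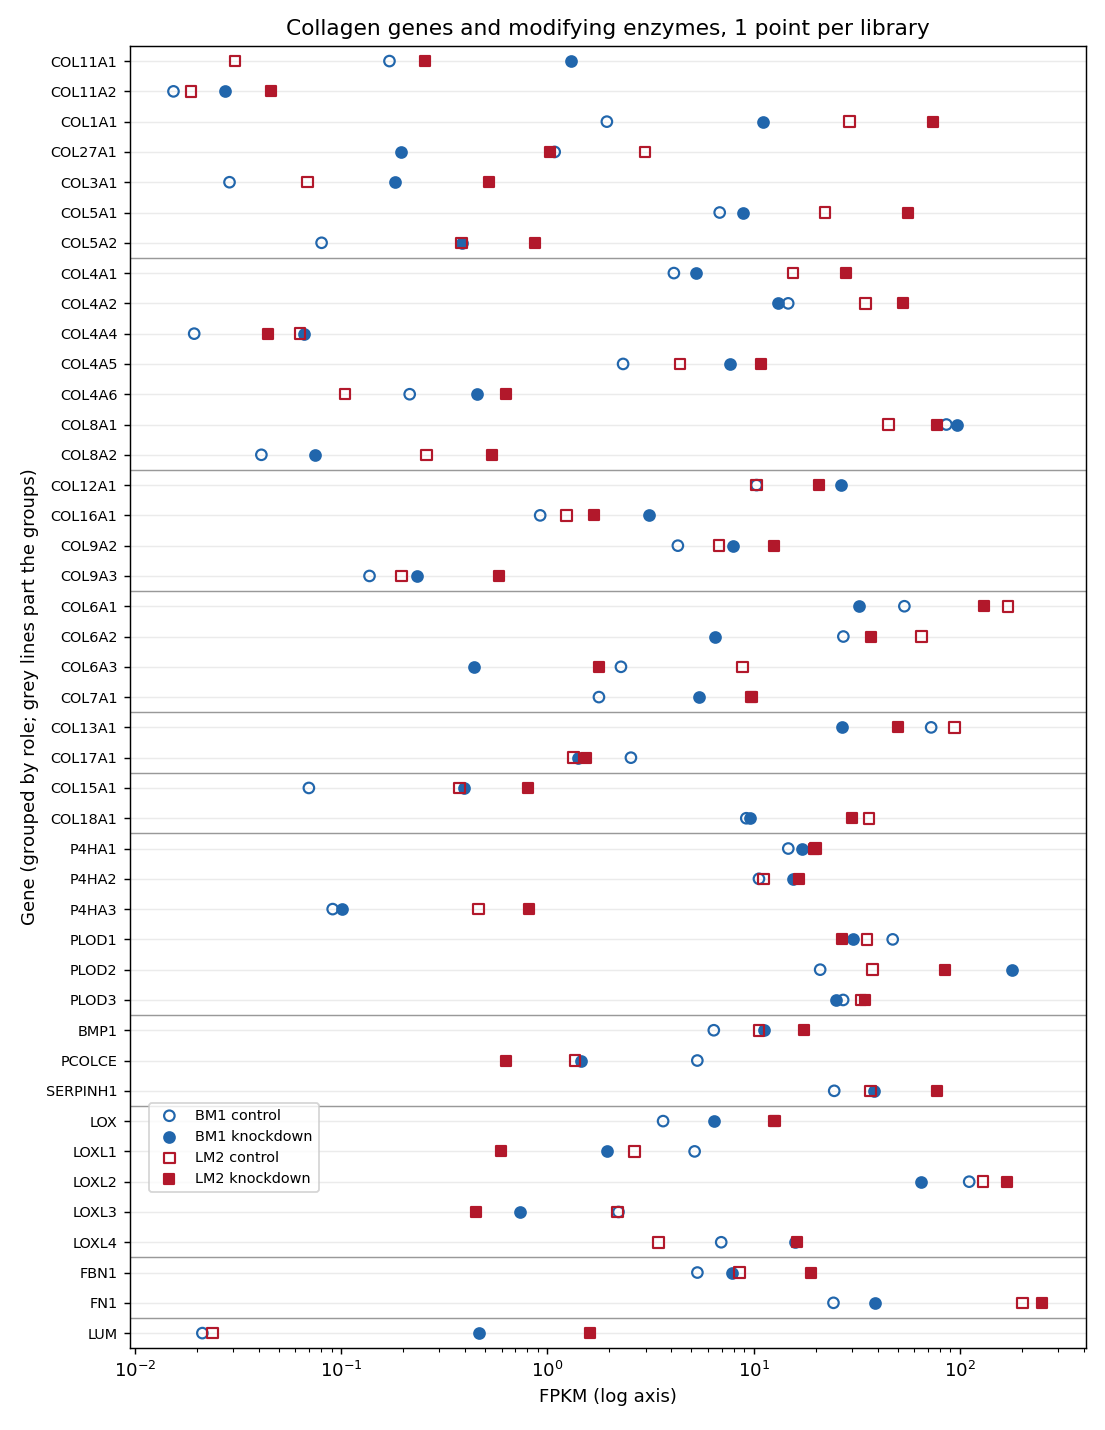
Level of all 43 members (rows, grouped by role) in FPKM on a log axis, with open symbols for control and filled symbols for knockdown libraries, circles for BM1 and squares for LM2, 1 point per library. FN1, COL6A1 and COL1A1 show both squares to the right of both circles, while the 3 type VI chains, COL13A1 and LOXL1 show the filled symbol of each line to the left of the open symbol of that line.

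The first comparison asked how the 2 derivatives differ over both treatments. Of the 32 members tested, 10 were higher in LM2 past the threshold (adjusted p under 0.05 in limma), against 2.31% of all 13928 genes tested, and 0 were lower, against 2.04%. The 10 were COL1A1, COL5A1, COL4A1, COL4A2, COL6A1, COL6A2, COL6A3, COL18A1, FN1 and LOX. At least 2-fold is meant on FPKM + 1, a step of 1 on the log2 scale. Values were at least 2-fold higher in LM2 in both treatments for 8 of them (all but COL6A3 and LOX, background 1.98%), and no member was at least 2-fold lower in both (background 1.69%). The median difference over the 32 members was 0.63 on the log2(FPKM + 1) scale, and over all genes tested it was -0.01. The 17 collagen chains had a median of 1.27 and the 15 other members one of 0.30.

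COL1A1 encodes the alpha 1 chain of type I collagen, the main protein of bone and tendon fibres (chromosome 17, 48260650 to 48278993, minus strand, GRCh37). It measured 1.94 and 11.1 FPKM for the BM1 pair and 29.2 and 74.2 FPKM for the LM2 pair. All 4 levels stood apart, with both LM2 libraries above both BM1 libraries and each knockdown above its control. The difference between lines was 3.0 ± 0.28 (log2, standard error, adjusted p = 0.00109). COL5A1, a type V chain that starts and limits the width of type I fibres, was at 6.85 and 8.94 FPKM for the BM1 pair and 22.2 and 56.2 FPKM for the LM2 pair (2.04 ± 0.30, adjusted p = 0.00860). Both LM2 libraries were again above both BM1 libraries. Of the partner chains that usually complete these molecules, COL1A2 has no row and COL5A2 was at most 0.871 FPKM.

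The type IV chains COL4A1 and COL4A2, which wind together into the common basement membrane collagen, were both higher in LM2. The genes lie head to head on chromosome 13 (COL4A1 110801310 to 110959496, minus strand; COL4A2 110958159 to 111165374, plus strand, GRCh37), and the table's gene models overlap by 1338 bases. COL4A1 was at 4.11 and 5.24 FPKM for the BM1 pair and 15.5 and 27.9 FPKM for the LM2 pair (1.95 ± 0.27, adjusted p = 0.00633). COL4A2 was at 14.7 and 13.1 FPKM for the BM1 pair and 34.8 and 53.2 FPKM for the LM2 pair (1.56 ± 0.28, adjusted p = 0.0203). COL4A2 exceeded COL4A1 in each library, with ratios of 3.58 and 2.5 for the BM1 pair and 2.24 and 1.9 for the LM2 pair. With knockdown in BM1 their signs were opposite, at 0.29 in COL4A1 and -0.16 in COL4A2 on the log2(FPKM + 1) scale. The stretch between the 2 start sites is shown because both genes are transcribed away from it and both were higher in LM2. It is given on the COL4A2 strand from RefSeq, GRCh38.p14, chr13:110307158-110307283, plus strand, 126 bases, with capitals for CCAAT and GGGCGG on either strand.
COL4A1 and COL4A2 shared upstream stretch: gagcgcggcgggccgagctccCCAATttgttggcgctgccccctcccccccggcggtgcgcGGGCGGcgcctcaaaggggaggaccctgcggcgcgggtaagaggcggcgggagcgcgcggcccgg

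Type VI collagen is built from COL6A1, COL6A2 and COL6A3 chains. COL6A1 (chromosome 21, 47401651 to 47424964, plus strand, GRCh37) was at 53.9 and 32.4 FPKM for the BM1 pair and 171 and 131 FPKM for the LM2 pair (1.82 ± 0.26, adjusted p = 0.00764). COL6A2, its neighbour 93046 bases further on, was at 27.2 and 6.50 FPKM for the BM1 pair and 65.3 and 37.3 FPKM for the LM2 pair (1.79 ± 0.31, adjusted p = 0.0179). COL6A3 (chromosome 2, 238232646 to 238323018, minus strand) was at 2.28 and 0.441 FPKM for the BM1 pair and 8.83 and 1.78 FPKM for the LM2 pair (1.27 ± 0.27, adjusted p = 0.0401). In COL6A1 and COL6A2 both LM2 libraries were above both BM1 libraries, and in COL6A3 the LM2 knockdown library lay below the BM1 control. COL6A3 was the scarcest of the 3, with COL6A1 at 19.4 to 73.4 times its level.

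COL18A1, a basement membrane proteoglycan whose end fragment is endostatin, was at 9.22 and 9.64 FPKM for the BM1 pair and 36.3 and 29.9 FPKM for the LM2 pair (1.70 ± 0.26, adjusted p = 0.00983). It overlaps SLC19A1 on the opposite strand over 20149 bases, so its level is uncertain. Fibronectin (FN1, chromosome 2, 216225163 to 216300895, minus strand), the adhesive glycoprotein on which cells lay down collagen, was at 24.4 and 38.7 FPKM for the BM1 pair and 201 and 250 FPKM for the LM2 pair. The difference of 2.83 ± 0.26 (adjusted p = 0.000974) was close in size to that of COL1A1. LOX, the founding lysyl oxidase, was at 3.64 and 6.43 FPKM for the BM1 pair and 12.5 and 12.7 FPKM for the LM2 pair (1.21 ± 0.27, adjusted p = 0.0460), and it overlaps SRFBP1 on the opposite strand. COL7A1, the anchoring fibril collagen of skin, missed the threshold (adjusted p = 0.0565) at 1.78 and 5.41 FPKM for the BM1 pair and 9.81 and 9.67 FPKM for the LM2 pair.

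None of the 5 prolyl and lysyl hydroxylases tested was called, and neither were SERPINH1, BMP1 (a protease that removes the C-propeptide) or PCOLCE (its enhancer). P4HA1, a catalytic chain of prolyl 4-hydroxylase, was at 14.7 and 17.1 FPKM for the BM1 pair and 19.9 and 19.7 FPKM for the LM2 pair. Its paralog P4HA2 was at 10.6 and 15.5 FPKM for the BM1 pair and 11.2 and 16.6 FPKM for the LM2 pair. PCOLCE was the member with the largest excess in BM1, at 5.34 and 1.45 FPKM for the BM1 pair and 1.36 and 0.634 FPKM for the LM2 pair (-1.0 ± 0.29, adjusted p = 0.0892). COL8A1 was at 86.1 and 97.4 FPKM for the BM1 pair and 45.1 and 77.9 FPKM for the LM2 pair (-0.62 ± 0.27, adjusted p = 0.221). Both genes had the 2 BM1 libraries above the LM2 library of the same treatment, by less than the fit could call.

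**Figure D3:**
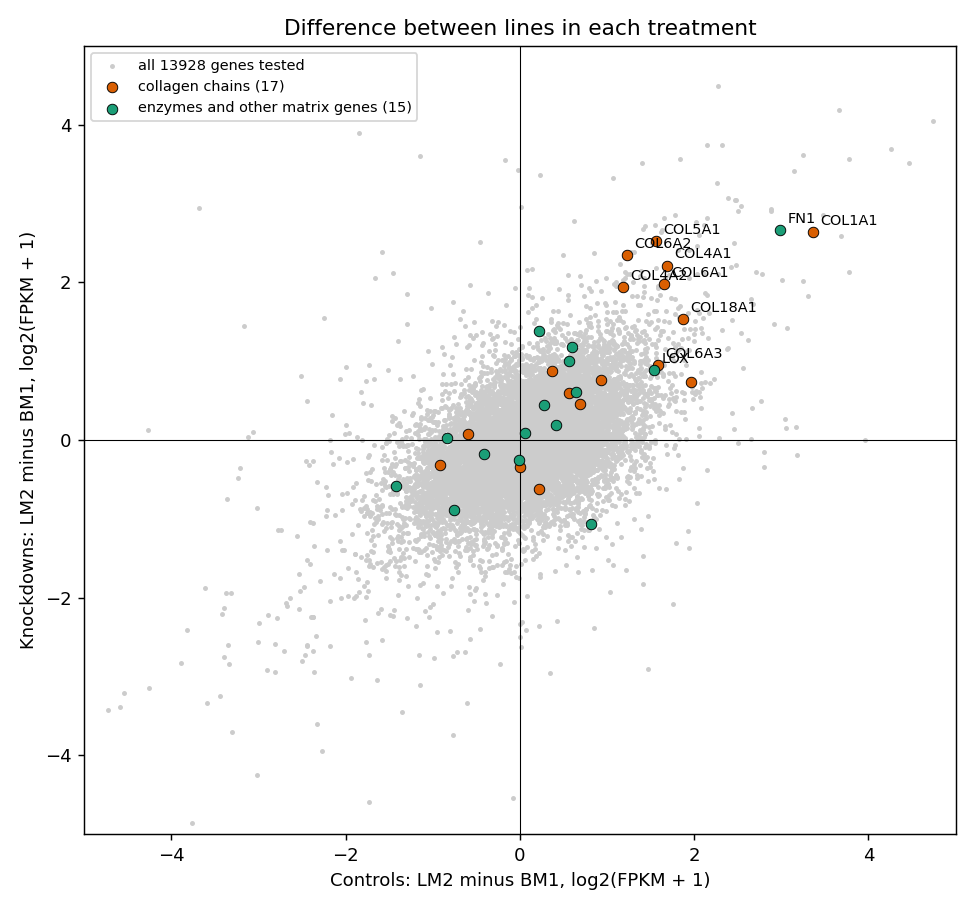
Difference between LM2 and BM1 on the log2(FPKM + 1) scale in controls (horizontal axis) and knockdowns (vertical axis), 1 point per gene, with all 13928 genes tested in grey, collagen chains in orange, other members in green and the called members named. The 10 named members lie on the upper right, and 9 grey genes lie beyond the axes, which end at 5.

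Within each treatment the same comparison rests on 1 library per line. Between controls, 11 members were at least 2-fold higher in LM2 (background 6.98%) and 1 was lower, PCOLCE (background 5.26%). Between knockdowns, 11 were higher (background 4.41%) and 1 was lower, PLOD2 (background 4.63%). COL7A1, COL6A3 and LOX were on the higher side between controls alone, and SERPINH1, FBN1 and LOXL2 between knockdowns alone. Whether these differed by treatment was not tested. The fit has 1 residual degree of freedom, and of the 10 calls 3 held with a pseudocount of 0.1. Without a treatment term or without the filter on low values 0 held. At an unadjusted p under 0.05 in limma there were 21 of 43 members without the filter and 10 of 32 without the treatment term. Over all genes, 606 were called in the main fit, 216 with that pseudocount, 11 without the treatment term and 0 without the filter. None of the 10 held when any 1 of the 4 libraries was left out, in a fit that then lacks the treatment term (10 to 13 members at an unadjusted p under 0.05).

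The second comparison asked what changed with depletion of hnRNPM over both lines. Of the 32 members, 5 rose (COL1A1, COL4A5, COL12A1, PLOD2 and LOXL4, background 2.71%) and 4 fell (COL6A2, COL6A3, COL13A1 and LOXL1, background 2.76%). The fitted changes lay in both directions, with 19 above and 13 below 0 and a median of 0.41 on the log2(FPKM + 1) scale against -0.01 over all genes tested. In BM1, 7 were at least 2-fold higher (background 10.1%) and 5 lower (background 6.2%). In LM2, 7 were at least 2-fold higher (background 3.83%) and 3 lower (background 4.24%). The 3 lower include LOXL3, which passed the filter on low values only through the controls, so that count is not read against the background. At least 2-fold in both lines were COL1A1, COL4A5, PLOD2 and LOXL4, which rose (4 members, background 1.92%), and COL6A3 and LOXL1, which fell (2 members, background 1.95%). The signs in the 2 lines were the same in 25 of 32 members (78.1%) and in 69.1% of all genes tested, and 0 members had opposite signs with at least 0.5 in each line (background 1.55%).

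**Figure D4:**
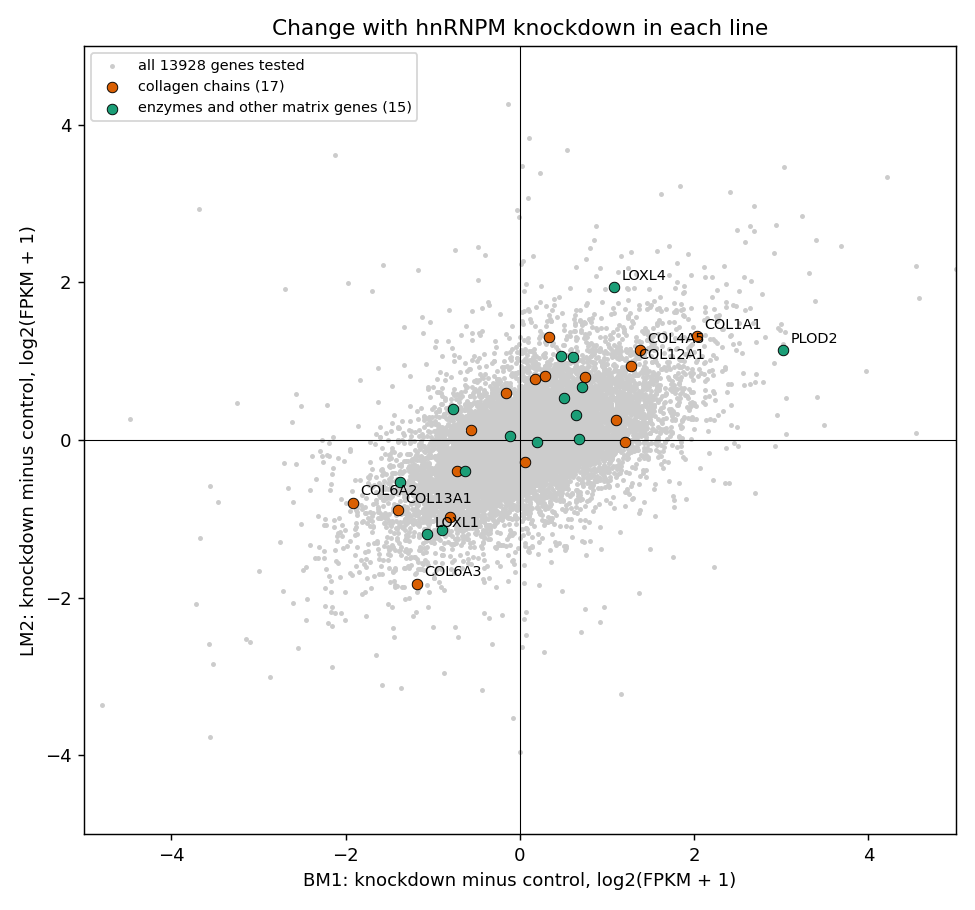
Change with hnRNPM knockdown on the log2(FPKM + 1) scale in BM1 (horizontal axis) and LM2 (vertical axis), 1 point per gene, with all 13928 genes tested in grey, collagen chains in orange, other members in green and the called members named. PLOD2 lies farthest right at 3.02, COL6A3 is the lowest member at -1.82, and 2 grey genes lie beyond the axes, which end at 5.

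PLOD2, the lysyl hydroxylase that acts on the ends of collagen chains and steers them to stable cross-links, had the largest fitted change over both lines among the 32 members tested (chromosome 3, 145787227 to 145881440, minus strand, GRCh37). It rose 8.48-fold in the BM1 pair, from 21.0 to 178 FPKM, and 2.23-fold in the LM2 pair, from 37.8 to 84.4 FPKM. Within LM2 alone LOXL4, COL6A3, COL1A1, COL5A1, LOXL1 and COL4A5 had larger changes than PLOD2 on the log2 scale, in either direction. Both knockdown libraries were above both controls, and the change over the lines was 2.08 ± 0.41 (log2, standard error, adjusted p = 0.0268). Neither paralog was called. PLOD1 was at 47.3 and 30.3 FPKM for the BM1 pair and 35.4 and 26.8 FPKM for the LM2 pair (-0.51 ± 0.25, adjusted p = 0.257). PLOD3, which also adds sugars to collagen, was at 27.2 and 25.1 FPKM for the BM1 pair and 33.2 and 34.5 FPKM for the LM2 pair (-0.03 ± 0.25, adjusted p = 0.958). PLOD2 therefore made up 22.0% of the summed lysyl hydroxylase FPKM in the BM1 control and 76.3% in the BM1 knockdown, and 35.5% and 57.9% in the corresponding LM2 libraries. The upstream sequence of PLOD2 is shown because the gene had that largest fitted change. It is given on the gene's own strand from RefSeq, GRCh38.p14, chr3:146161185-146161434, minus strand, 250 bases that end at the start site, with capitals for CCAAT, for GGGCGG (the box that Sp1 binds) and for ACGTG (the core that hypoxia-inducible factors bind) on either strand.
PLOD2 upstream: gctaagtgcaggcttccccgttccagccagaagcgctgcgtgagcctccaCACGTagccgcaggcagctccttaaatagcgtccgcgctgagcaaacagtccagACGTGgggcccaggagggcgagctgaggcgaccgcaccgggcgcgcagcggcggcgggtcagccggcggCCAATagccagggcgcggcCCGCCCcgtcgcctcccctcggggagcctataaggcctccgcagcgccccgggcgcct

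COL1A1 rose with knockdown by 1.67 ± 0.28 (adjusted p = 0.0171), 5.68-fold in BM1 and 2.54-fold in LM2. COL4A5, a type IV chain mutated in Alport syndrome of the kidney, rose from 2.33 to 7.68 FPKM in the BM1 pair and 4.39 to 10.9 FPKM in the LM2 pair (1.26 ± 0.25, adjusted p = 0.0296). COL12A1, which decorates the surface of type I fibres, rose from 10.3 to 26.5 FPKM in the BM1 pair and 10.3 to 20.7 FPKM in the LM2 pair (1.11 ± 0.26, adjusted p = 0.0447). In both genes the 2 knockdown libraries were above the 2 controls. The other fibril-associated chains tested were also above control in both lines without reaching the threshold, COL9A2 at 4.30 and 7.92 FPKM for the BM1 pair and 6.81 and 12.5 FPKM for the LM2 pair (adjusted p = 0.108) and COL16A1 at 0.924 and 3.12 FPKM and at 1.24 and 1.68 FPKM (adjusted p = 0.187). The fitted difference of COL5A1 was 0.82 ± 0.30 (adjusted p = 0.138), from values that were 1.30 times control in BM1 and 2.54 times control in LM2. The summed level of the fibroblast markers with a row was also higher in the knockdown libraries, from 1.66 to 3.98 FPKM in the BM1 pair and 0.807 to 4.57 FPKM in the LM2 pair, through PDGFRB and LUM, which is itself one of the matrix genes studied, with THY1 lower in both. Its part in these changes was not tested.

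The chains of type VI collagen were lower in the knockdown libraries of both lines, and 2 of the 3 fell past the threshold. COL6A3 was left at 19.4% of control in BM1 and 20.2% in LM2 (-1.50 ± 0.27, adjusted p = 0.0217). COL6A2 was left at 23.9% in BM1 and 57.0% in LM2 (-1.35 ± 0.31, adjusted p = 0.0446). COL6A1 was at 60.1% and 76.1% of control (-0.55 ± 0.26, adjusted p = 0.223). Both COL6A3 knockdown levels were below both controls, while in COL6A2 the LM2 knockdown library lay above the BM1 control. The ratio of the chains differed between treatments, with COL6A1 at 23.7 and 73.4 times the level of COL6A3 for the BM1 pair and at 19.4 and 73.3 times for the LM2 pair. The upstream sequences of the called chains are shown for comparison, since these genes fell in both lines from different chromosomes. They are 250 bases ending at the RefSeq start site on the gene's own strand, GRCh38.p14, with capitals for TATAAA and GGGCGG on either strand: COL6A2 at chr21:46097862-46098111, plus strand, and COL6A3 at chr2:237414165-237414414, minus strand, where no letters are in capitals because none of the motifs searched was found.
COL6A2 upstream: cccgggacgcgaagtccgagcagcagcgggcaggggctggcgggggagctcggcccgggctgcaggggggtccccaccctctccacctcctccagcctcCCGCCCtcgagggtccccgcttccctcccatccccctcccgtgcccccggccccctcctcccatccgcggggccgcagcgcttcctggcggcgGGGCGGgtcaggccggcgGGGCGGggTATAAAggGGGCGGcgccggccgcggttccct
COL6A3 upstream: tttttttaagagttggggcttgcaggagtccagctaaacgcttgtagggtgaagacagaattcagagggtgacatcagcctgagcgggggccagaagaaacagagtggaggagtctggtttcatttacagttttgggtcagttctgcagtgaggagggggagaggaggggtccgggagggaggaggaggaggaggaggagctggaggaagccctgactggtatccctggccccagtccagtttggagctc

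COL13A1, a collagen that stays in the cell membrane and takes part in adhesion, was the third called chain that fell (chromosome 10, 71561687 to 71724031, plus strand). It went from 72.6 to 26.9 FPKM in the BM1 pair and 94.4 to 50.4 FPKM in the LM2 pair (-1.15 ± 0.26, adjusted p = 0.0439), with both knockdown libraries below both controls. COL17A1, the membrane collagen of hemidesmosomes, was at 2.54 and 1.41 FPKM for the BM1 pair and 1.34 and 1.55 FPKM for the LM2 pair (adjusted p = 0.667). COL27A1, a fibrillar chain of cartilage, was at 1.09 and 0.195 FPKM for the BM1 pair and 2.97 and 1.03 FPKM for the LM2 pair (-0.89 ± 0.25, adjusted p = 0.0776), at levels where the log2(FPKM + 1) scale understates a change.

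The lysyl oxidases went apart. LOXL4 (chromosome 10, 100007447 to 100028007, minus strand) rose from 6.97 to 15.9 FPKM in the BM1 pair and 3.47 to 16.2 FPKM in the LM2 pair (1.51 ± 0.29, adjusted p = 0.0256). LOXL1, which acts on elastin, fell from 5.18 to 1.95 FPKM in the BM1 pair and 2.65 to 0.594 FPKM in the LM2 pair (-1.13 ± 0.25, adjusted p = 0.0402). In both genes no knockdown library overlapped a control. LOXL3 was at 2.21 and 0.734 FPKM for the BM1 pair and 2.19 and 0.451 FPKM for the LM2 pair, and was not called. It was under 1 FPKM in both knockdown libraries. LOXL3 thus passed the filter on low values only through the controls, and its levels are a description. LOXL2, the most abundant of the family with 72.2% to 86.2% of its summed FPKM, was at 111 and 64.9 FPKM for the BM1 pair and 130 and 170 FPKM for the LM2 pair (adjusted p = 0.754). LOX was at 1.77 times control in BM1 and 1.02 times in LM2 (adjusted p = 0.468). LOXL1 overlaps LOXL1-AS1 and LOXL3 overlaps HTRA2 and DOK1 on the opposite strand, and LOXL2 overlaps ENTPD4 on the same strand over 39546 bases, so their levels are uncertain. P4HA2, PLOD3, LOXL4, COL8A1 and COL4A2 (with COL4A2-AS1 over 5605 bases) also overlap genes on the opposite strand. Whether strand was used in counting is not stated.

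Chaperone and processing genes were not called. SERPINH1, which encodes HSP47, was at 24.6 and 38.2 FPKM for the BM1 pair and 36.9 and 77.7 FPKM for the LM2 pair (0.83 ± 0.26, adjusted p = 0.0994). BMP1 was at 6.42 and 11.2 FPKM for the BM1 pair and 10.6 and 17.6 FPKM for the LM2 pair (adjusted p = 0.134). PCOLCE was left at 27.2% of control in BM1 and 46.5% in LM2 (-0.95 ± 0.29, adjusted p = 0.0912). Fibrillin 1 (FBN1), the core of microfibrils, was at 5.34 and 7.82 FPKM for the BM1 pair and 8.57 and 19.0 FPKM for the LM2 pair (adjusted p = 0.127), and FN1 was at 1.59 and 1.25 times control (adjusted p = 0.287). None of the 9 knockdown calls held with a pseudocount of 0.1, with quantile normalization, without the filter or without pairing by line. At an unadjusted p under 0.05 in limma there were 17, 17, 20 and 8 members. Over all genes, 762 were called in the main fit, 27 with that pseudocount and 0 with each of the other settings named. With size factors 7 members were called, and 707 over all genes. Leaving out any 1 library, in a fit without the line term, also left 0 calls (7 to 10 members at an unadjusted p under 0.05), and without the BM1 control the value of COL1A1 was -0.005 in place of 1.67.

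The 11 members below a mean of 1 FPKM were COL3A1, COL5A2, COL11A1, COL11A2, COL4A4, COL4A6, COL8A2, COL9A3, COL15A1, P4HA3 and LUM, with values between 0.0154 and 1.61 FPKM. In FPKM, all 11 were higher in the BM1 knockdown than in its control and 10 in the LM2 knockdown, the exception being COL4A4. Several of these differences rest on few fragments. By the longest transcript, the BM1 pair stood for about 3.09 and 4.0 fragments in COL11A2 and 5.99 and 8.01 in COL8A2. In P4HA3 they were 7.47 and 6.02, fewer in the knockdown, while COL11A1 had 39.3 and 217. P4HA3 overlaps PPME1, at a mean of 202 FPKM, on the opposite strand. Of all 6401 genes below that level, 55.6% were higher in the BM1 knockdown and 46.3% in the LM2 knockdown. LUM, a small proteoglycan that binds collagen fibres, was at 0.0213 and 0.465 FPKM for the BM1 pair and 0.0239 and 1.61 FPKM for the LM2 pair. Taking the longest transcript, these values stand for about 2.0, 31.9, 2.98 and 132 fragments, so the control levels were at or under the floor of 3 fragments. COL3A1, the type III chain, was at 0.0288 and 0.182 FPKM for the BM1 pair and 0.0688 and 0.525 FPKM for the LM2 pair, and COL11A1 at 0.172 and 1.30 FPKM and at 0.0307 and 0.255 FPKM. These 3 genes were picked out after their values were seen, and no test was made on genes below the filter.

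Other genes of collagen making, assembly, binding and breakdown were read from the same fit, over 63 genes in 4 lists, of which 40 were tested. Between the lines 7 were higher and 3 lower in LM2, against 2.31% and 2.04% of all genes tested, and with knockdown 2 were higher and 2 lower, against 2.71% and 2.76%. The knockdown counts are near the share over all genes. Of the genes called between lines, FKBP10 and MMP2 were under 1 FPKM in both BM1 libraries and ITGA10 in both LM2 libraries. These 3 passed the filter on low values only through the line where they are high, so their levels are a description and their calls support nothing. The 7 higher and 3 lower include them, so those counts are not read against the share over all genes. The list medians over the 40 genes were 0.06 between lines and -0.05 with knockdown. Of 21 folding, export and processing genes, 4 were called higher in LM2 (background 2.31%), a count that includes FKBP10. These were SPARC, a collagen-binding glycoprotein, at 2.13 and 1.31 FPKM for the BM1 pair and 248 and 651 FPKM for the LM2 pair (7.23 ± 0.40, adjusted p = 7.52e-05), FKBP10, which works with PLOD2 in the endoplasmic reticulum, at 0.382 and 0.182 FPKM for the BM1 pair and 29.6 and 12.5 FPKM for the LM2 pair, P3H4 and TMEM38B. With knockdown P3H2, a prolyl 3-hydroxylase, rose (1.17 ± 0.28, adjusted p = 0.0479) and none of the other 20 was called, against 2.71% higher and 2.76% lower over all genes. Of 10 elastic-fibre genes, FBLN1 was higher and EFEMP1 lower in LM2 (background 2.31% and 2.04%), and EFEMP1 rose with knockdown (background 2.71%). Of 6 collagen receptors, MRC2, which takes up collagen fragments, was higher in LM2 (background 2.31%), ITGA10 was at 3.42 and 1.57 FPKM for the BM1 pair and 0.429 and 0.319 FPKM for the LM2 pair, and none was called with knockdown. Among 3 collagenases tested, MMP1 and the membrane protease MMP14 fell with knockdown (background 2.76%), MMP14 from 105 to 23.4 FPKM in the BM1 pair and 92.7 to 19.5 FPKM in the LM2 pair (-2.16 ± 0.25, adjusted p = 0.00652). MMP1 was lower in LM2 (background 2.04%), at 355 and 11.9 FPKM for the BM1 pair and 33.3 and 2.34 FPKM for the LM2 pair, and MMP2, which digests type IV collagen, was at 0.0171 and 0.0469 FPKM for the BM1 pair and 4.07 and 13.1 FPKM for the LM2 pair.

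Upstream sequences were compared over the members as a description. RefSeq gave a window for 33 of the 43 members. CCAAT, on either strand, was in the 250 bases before the start of 10 of them (30.3%), and in 33.0% of 27305 genes. GGGCGG was in 20 (60.6%) against 42.3%, TATAAA in 5 (15.2%) against 11.1%, and ACGTG in 6 (18.2%) against 18.7%. TGANTCA, the AP-1 motif, was in 0 of the 33 and in 6.6% of all genes. None of these motifs contains another. Base composition was not matched between the members and the other genes. The median share of G and C was 58.0% over all windows, and the share was 72.4% in PLOD2, 79.6% in COL6A2 and 56.0% in COL6A3. COL4A1, COL4A2, COL4A5 and COL4A6 all held CCAAT, and COL6A2 and COL6A3 did not. The windows of COL4A1 and COL4A2 overlap, as do those of COL4A5 and COL4A6, so these genes share sequence and are counted separately although a match can be the same one.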

How the data were processed

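Polyadenylated RNA from 4 cultures, 1 library per group, was measured with stranded paired-end TruSeq libraries, per the labels' protocols. The authors deposited 1 table of FPKM values with 1 column per library. The submitters' processing notes name GRCh37, STAR 2.5.3a and Cuffdiff 2.2.1, with no role or order. Filters, annotation release, use of strand in counting and scaling between libraries are not stated there. An FPKM value also moves with the isoform lengths assumed and with the most abundant genes. Of 20369 rows, 40 that share 3 gene IDs were left out.

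Values were analysed as log2(FPKM + 1), which understates changes of low genes, for the 13928 genes whose mean reached 1 FPKM. Both comparisons came from 1 limma fit (limma 3.58.1, R 4.3.3) with terms for line and treatment and 1 residual degree of freedom. Two-sided p-values were adjusted with the Benjamini-Hochberg method over all genes tested, with a threshold of 0.05; ± gives the moderated standard error. The p-values rest on the spread that both factors leave among 4 libraries, pooled in part over all genes by limma. This spread is not one between replicate cultures, and it also holds any interaction between line and treatment. An interaction between line and treatment could not be tested. Members, lists and tests were chosen with earlier results of these data known.

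Depth is the number of fragments at which FPKM times transcript length (GENCODE 29, by gene ID, 1623 low genes with a single transcript) came out whole, within 0.02, most often: 36.6% to 44.9% of values against medians of 2.33% to 3.07% at other depths. Most values were not whole, so no count test was run. Fragment numbers and the floor of 3 fragments cover counting error only. Promoter windows (250 bases before the first listed RefSeq start) are on GRCh38.p14, and gene coordinates are those of the table. Alternatives were pseudocounts of 0.1 and 0.5, no filter and a filter at 5, size factors, quantile normalization, an intensity trend, a fit without the other factor, leaving out each library, and 1.5-fold in place of 2-fold. All members are named; values in every library are given for members at a mean of 10 FPKM or more, called, or at least 2-fold changed.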

Additional observations from a re-analysis of the deposited data

Results flagged for a closer look

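In 7 of the 32 members tested the 2 lines had opposite signs with knockdown, each on 1 pair of libraries. The signs were the same in 78.1% of the members and in 69.1% of all genes tested, so opposite signs were not more frequent among the members. Whether the lines differed in these members was not tested. The knockdown change in LM2 minus that in BM1, on the log2(FPKM + 1) scale, was 1.16 in LOXL2 (-0.77 in BM1 and 0.39 in LM2), 0.75 in COL4A2 (-0.16 and 0.60) and 0.68 in COL17A1 (-0.56 and 0.12). It was -1.23 in COL7A1 (1.21 and -0.02), -0.33 in COL18A1 (0.06 and -0.27), -0.22 in P4HA1 (0.20 and -0.02) and 0.16 in PLOD3 (-0.11 and 0.05).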

How the results depend on the processing

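Between the lines 10 members were called, against 3 at pseudocount 0.1, 3 after quantile normalization, and 0 without the filter or without the treatment term. The calls over all genes, in the same order, were 606, 216, 104, 0 and 11. With knockdown 9 members were called, against 0 at pseudocount 0.1, after quantile normalization, without the filter and without pairing by line. The calls over all genes were 762, 27, 0, 0 and 0. With a pseudocount of 0.1 the pathway lists gave 5 calls in place of 10 between lines and 1 in place of 4 with knockdown. The 10 include FKBP10, MMP2 and ITGA10. At 1.5-fold in place of 2-fold, with knockdown, 22 members in place of 12 passed in BM1 (12 higher, 10 lower). In LM2 19 passed in place of 10 (13 higher, 6 lower). Between the lines 21 passed in place of 12 in controls (16 higher, 5 lower) and 22 in place of 12 in knockdowns (18 higher, 4 lower). The share of all genes past 1.5-fold was not counted, so these counts do not set the members apart from other genes. The cause of the lost calls was not tested. Of 19 calls of single members, 19 held with an intensity trend, 17 with size factors and 15 with a pseudocount of 0.5, and at a filter of 5 FPKM the 16 still tested held. Over all genes, the calls between lines and with knockdown were 716 and 888 with the trend and 552 and 707 with size factors. They were 484 and 613 with that pseudocount and 502 and 723 at that filter. Leaving out 1 library gave 0 calls in each fit, for both comparisons. Those fits drop the other factor, since 3 libraries leave it no residual degree of freedom, assume that the lone library varies like the others, and so mix the effect of line with that of treatment by construction. Signs turned in these fits alone. For LM2 minus BM1 the log2 ranges of the members that turned were COL12A1 -0.81 to 0.47, COL13A1 -0.072 to 1.33, COL16A1 -0.75 to 0.35, COL17A1 -0.54 to 0.019, COL4A5 -0.11 to 1.27, LOXL3 -0.70 to 0.43, LOXL4 -1.37 to 0.57, P4HA2 -0.19 to 0.34, PLOD1 -0.60 to 0.022, PLOD2 -1.64 to 1.39. For knockdown minus control they were COL17A1 -0.52 to 0.082, COL18A1 -1.04 to 0.83, COL1A1 -0.005 to 3.35, COL4A1 -0.56 to 1.66, COL4A2 -0.75 to 1.19, COL5A1 -0.44 to 2.08, COL6A1 -1.54 to 0.44, COL7A1 -0.39 to 1.57, FN1 -1.01 to 1.98, LOX -0.42 to 1.12, LOXL2 -0.88 to 0.50, P4HA1 -0.12 to 0.30, PLOD3 -0.25 to 0.19. Values below about 1 FPKM rest on few fragments, and no member could be tested against replicate cultures.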
